A study of Homo sapiens with 6 samples.

Results

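Coronins, WAVE proteins and PHACTR proteins regulate actin filaments, and 10 of their genes were followed after knockdown of TAZ in HFL-1, a fibroblast line that was derived from human fetal lung. The genes were taken from the count table by symbol. They are 4 coronin genes (CORO1B, CORO1C, CORO2B and CORO7), 3 WAVE genes (WASF1, WASF2 and WASF3) and 3 PHACTR genes (PHACTR1, PHACTR2 and PHACTR4), out of 23355 genes in the table, and 9 of the 10 had enough counts to be tested among 14053 tested genes. All groups are this single line. The cells received a non-targeting control siRNA (siNTC) or 1 of 2 siRNAs against TAZ (siTAZ #1 and siTAZ #2), all with Lipofectamine RNAiMAX, and RNA was taken 48 h after transfection. Each group had 2 libraries, which the submitters call biological replicates, and both TAZ comparisons use the same siNTC libraries.

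Branched actin networks push the front edge of a moving fibroblast forward. WAVE proteins, held in a complex with CYFIP, NCKAP1, ABI and BRK1 subunits, switch on the Arp2/3 complex, which builds new branches on existing filaments. Type I coronins, among them CORO1B and CORO1C, bind filaments and the Arp2/3 complex and help to take branches apart together with cofilin, whereas PHACTR proteins bind both actin monomers and protein phosphatase 1. TAZ, encoded by WWTR1, is a transcriptional coactivator that reaches DNA through TEAD factors.

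The libraries held 15648055 to 32078188 counts. WWTR1 itself stood at 132 and 131 CPM (counts scaled to a common library size by edgeR's TMM method) in siNTC, at 26.4 and 28.4 CPM with siTAZ #1, and at 46.1 and 43.1 CPM with siTAZ #2, so the targeted gene was low in all 4 knockdown libraries. One library, siTAZ #1 replicate 2, had almost no counts for genes from RANGAP1 on chromosome 22 through X and Y. No member lies there, but the common dispersion of the fit was 0.0807 with those genes and 0.0164 without them. The 8 fibroblast markers were all expressed, and their summed level was 34400 to 34600 CPM in siNTC, 21800 to 22700 CPM with siTAZ #1 and 26700 to 28400 CPM with siTAZ #2. The sum was mostly COL1A1, COL1A2, COL3A1 and VIM, and the markers did not move as one. COL1A2 (log2 -1.01 and -0.77, FDR 0.0071 and 0.012), LUM (-0.54 and -1.92, FDR 0.027 and 0.00066) and DCN (-0.66 and -1.59, FDR 0.01 and 0.00072) fell with both siRNAs. COL3A1 and VIM fell with siTAZ #2 (-0.43 each, FDR 0.04 each) and did not pass with siTAZ #1 (FDR 0.16 and 0.093). COL1A1 fell with siTAZ #1 (-0.72, FDR 0.0062) and stood at 0.20 with siTAZ #2 (FDR 0.17). PDGFRB rose with both siRNAs (0.39 and 0.54, FDR 0.02 and 0.0051), and THY1 rose with siTAZ #2 (0.50, FDR 0.01). Of the markers of other cell types, 4 of 5 epithelial, 2 of 4 endothelial and 5 of 6 leukocyte genes were under 1 CPM in every library. Their sums were 0.774 to 2.99 CPM, 26.0 to 47.2 CPM (mostly TEK) and 38 to 75.7 CPM (mostly CD68). The part of these shifts in the changes described here was not tested, and in RNA from whole cultures fewer cells of a kind and less RNA per cell cannot be told apart.

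CORO1C, WASF2 and PHACTR4 fell with both siRNAs, whereas none of their tested paralogues fell with both at an FDR under 0.05. With siTAZ #1, 4 of the 9 tested members were lower at an FDR under 0.05 (9.78% of all tested genes were) and 1 was higher (10.8% of all). With siTAZ #2, 3 were lower (14.4% of all) and 3 were higher (14.1% of all). FDR denotes the Benjamini-Hochberg adjusted p of edgeR's quasi-likelihood test over all tested genes. Both siRNAs lowered 3 members, against 3.74% of all genes, and raised 1, CORO1B, against 5.49% of all. In 3 members the 4 siTAZ libraries all lay below both siNTC libraries (17.5% of all genes), and in CORO1B, CORO2B and WASF1 they all lay above (18.6% of all). CORO1C, WASF2 and PHACTR4 belong to a list of commonly lowered genes that the study drew from these same libraries, so their direction is not independent evidence. The median log2 fold change of the 9 members was -0.22 with siTAZ #1 and 0.19 with siTAZ #2, beside 0.02 and 0.01 over all tested genes.

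**Figure D1:**
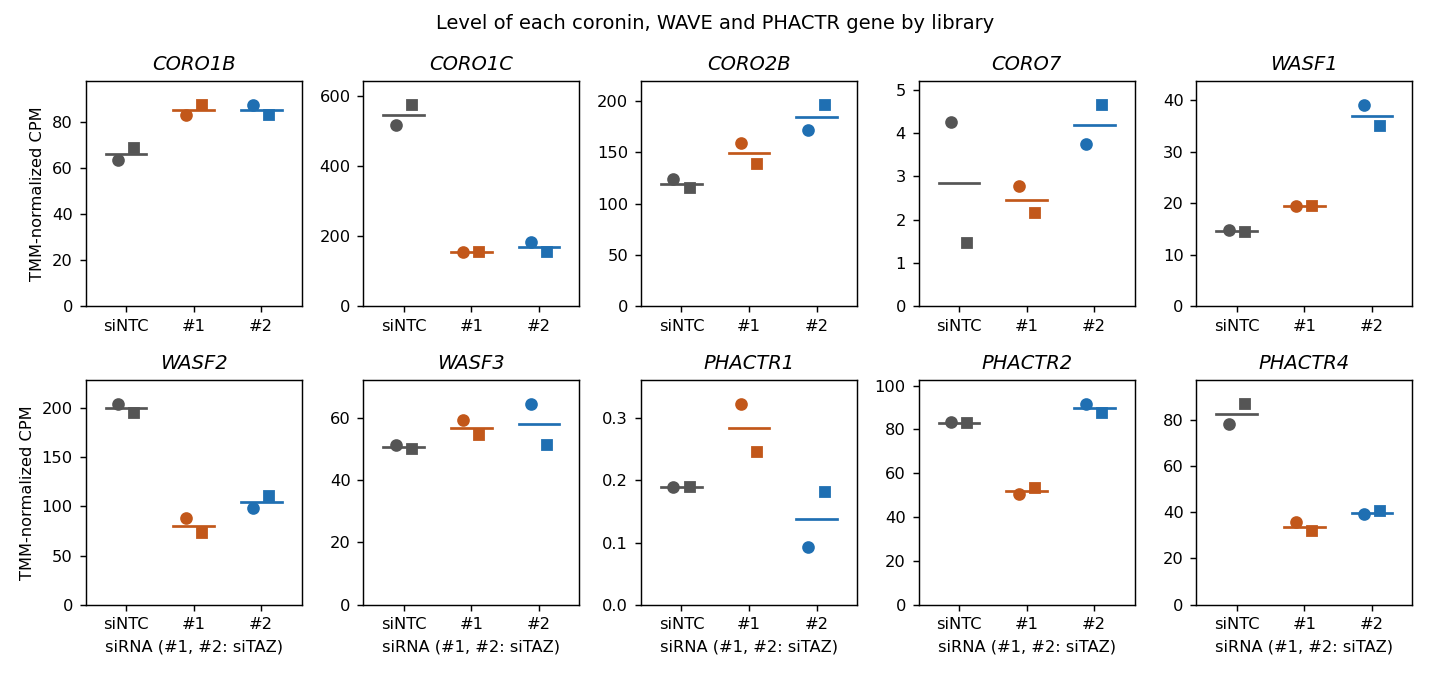
Level of each of the 10 genes in TMM-normalized CPM (vertical axes, each from 0) in the 6 libraries, with a circle for replicate 1, a square for replicate 2 and a line at the group mean. CORO1C, WASF2 and PHACTR4 are lower in all 4 siTAZ libraries, and WASF1 rises furthest with siTAZ #2, to 34.9 and 39.0 CPM.

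The promoter sequences were examined because TEAD factors bind the letters CATTCC. Both strands (CATTCC or GGAATG) were searched in the 250 bases before each RefSeq start on GRCh38.p14, and 11.9% of 35116 such windows in the genome held the letters. Of the members, 9 had at least 1 window in the table and WASF2 had none there. The letters stood in 4 of the 26 member windows, 1 each of PHACTR4, PHACTR2, PHACTR1 and CORO2B. None of the 3 windows of CORO1C held them. Counts per gene do not tell which start was in use in these cells. Of the 4 genes with the letters, PHACTR4 fell with both siRNAs, PHACTR2 fell with siTAZ #1 only, CORO2B rose with siTAZ #2 and PHACTR1 was not tested. Shown are the 80 bases before the start with a match in PHACTR4 and in PHACTR2, at chr1:28438070-28438149 and chr6:143677885-143677964 (both plus strand). These paralogues carry the match at the same distance, 12 to 7 bases before the start. Beside these PHACTR stretches stand 120 bases upstream of a start of CORO1C, the member with the lowest fold change, at chr12:108731549-108731668 (minus strand). They run from base 150 to base 31 before the start, so the bases nearest the start are not shown for CORO1C. Capitals mark the match.
PHACTR4: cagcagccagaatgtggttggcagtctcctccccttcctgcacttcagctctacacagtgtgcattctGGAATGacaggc
PHACTR2: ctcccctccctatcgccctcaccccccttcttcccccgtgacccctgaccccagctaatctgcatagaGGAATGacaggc
CORO1C: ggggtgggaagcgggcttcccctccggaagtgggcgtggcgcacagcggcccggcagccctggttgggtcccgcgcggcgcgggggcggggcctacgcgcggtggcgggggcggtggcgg
The last 12 bases before the start were the same letters in PHACTR4 and PHACTR2. A match of letters is a description of the window and no evidence that a factor was bound.

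Among the 4 coronin members, CORO1C had the highest level per length in control cells and the lowest fold change with both siRNAs. With siTAZ #2, CORO2A, a low coronin gene outside the members, fell by a similar amount (log2 -1.66, 95% interval from -2.5 to -0.82). CORO1C lies on chromosome 12 of GRCh37 (chr12:109038885-109125302, minus strand). Its level was 517 and 574 CPM in siNTC, 154 and 155 CPM with siTAZ #1, and 182 and 154 CPM with siTAZ #2. The highest knockdown library was thus far below the lowest control library. The fold change was -1.82 ± 0.11 (SE, n = 2 against 2 libraries) on the log2 scale with siTAZ #1 (FDR 0.00084) and -1.70 ± 0.11 with siTAZ #2 (FDR 0.00069), which left 28.3% and 30.8% of the control level. The siRNAs differed from each other by -0.12 on the log2 scale, with a 95% interval from -0.39 to 0.14 (FDR 0.45). The falls passed the threshold in all 16 alternative settings, with log2 fold changes from -1.90 to -1.75 and from -1.83 to -1.58.

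CORO1B, the other type I coronin among the members, moved the opposite way by a small amount. It stood at 63.6 and 69.0 CPM in siNTC, at 83.4 and 87.5 CPM with siTAZ #1, and at 87.5 and 83.3 CPM with siTAZ #2. Both siRNAs thus gave higher values than either control, with a log2 fold change of 0.37 ± 0.09 with each siRNA (FDR 0.042 and 0.034). These calls were close to the threshold, and 10 and 7 of the 16 alternatives ended them. An offset for GC content moved the value with siTAZ #2 to -0.0018 (FDR 0.99). CORO1B has a GC content of 64.27% and shares exons on the same strand with PTPRCAP (2 to 7 counts a library, beside 1003 to 2852 for CORO1B), and how reads in the shared part were counted is not given in the sources used here.

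CORO2B, a type II coronin expressed at 124 and 115 CPM in control cells, rose with siTAZ #2. Its level was 159 and 139 CPM with siTAZ #1 and 172 and 196 CPM with siTAZ #2, above the controls in all 4 libraries. CORO2B changed by 0.33 ± 0.11 on the log2 scale with siTAZ #1 (FDR 0.09) and 0.63 ± 0.11 with siTAZ #2 (FDR 0.01). Leaving out siNTC replicate 1, siNTC replicate 2 or siTAZ #2 replicate 2 ended the latter call (FDR 0.069, 0.099 and 0.074), and the difference between the siRNAs did not pass (-0.30, FDR 0.092).

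CORO7, a coronin with a duplicated propeller that works at the Golgi rather than at the front edge, was low. It had 23 to 80 counts a library, or 4.25 and 1.45 CPM in siNTC, 2.77 and 2.15 CPM with siTAZ #1 and 3.74 and 4.65 CPM with siTAZ #2. The siNTC libraries alone spanned almost the whole range, and the log2 fold changes of -0.22 ± 0.52 and 0.56 ± 0.51 did not pass (FDR 0.8 and 0.47). Their 95% intervals ran from -1.50 to 1.06 and from -0.71 to 1.82, which include a change as large as that of CORO2B. CORO7 also shares exons with the readthrough gene CORO7-PAM16, which is listed with 0 counts in every library.

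Of the coronin genes outside the members, CORO2A, CORO6 and CORO1A were low. CORO2A was measured at 5.07 and 4.54 CPM in siNTC, 3.03 and 3.86 CPM with siTAZ #1, and 1.87 and 1.15 CPM with siTAZ #2, where it fell by 1.66 on the log2 scale (FDR 0.018). CORO6 was measured at 8.62 and 5.05, 6.32 and 5.28, and 14.9 and 14.3 CPM, and rose by 1.09 with siTAZ #2 (FDR 0.039). Both calls with siTAZ #2 were lost in some alternatives, 3 for CORO2A and 4 for CORO6. The 4 siTAZ libraries of CORO2A all lay below both siNTC libraries, but its change with siTAZ #1 (log2 -0.47) did not pass (FDR 0.35). CORO1A, the leukocyte coronin, was at 2.85 to 6.78 CPM over the 6 libraries and did not pass with either siRNA (FDR 0.84 and 0.44).

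Among the WAVE genes, WASF2 (WAVE2), the broadly expressed WAVE protein, fell with both siRNAs, and WASF1 (WAVE1), which is best known from the brain, rose with siTAZ #2. WASF2 lies on chromosome 1 of GRCh37 (chr1:27730734-27816678, minus strand). It stood at 204 and 195 CPM in siNTC, at 87.6 and 73.3 CPM with siTAZ #1 and at 98.0 and 110 CPM with siTAZ #2. No knockdown library reached the control range. WASF2 changed by -1.31 ± 0.12 on the log2 scale with siTAZ #1 (FDR 0.002) and by -0.94 ± 0.12 with siTAZ #2 (FDR 0.0035), to 40.4% and 52.2% of the control level, and both falls passed in all 16 alternatives. The log2 difference of siTAZ #1 from siTAZ #2 was -0.37 (95% interval from -0.66 to -0.09), which did not pass (FDR 0.06) but did in 5 of the 16 alternatives.

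WASF1 was low in control cells, at 14.7 and 14.3 CPM. It was at 19.4 and 19.5 CPM with siTAZ #1 and at 39.0 and 34.9 CPM with siTAZ #2, so the groups did not overlap and siTAZ #2 stood above siTAZ #1. Against siNTC it had a log2 fold change of 0.42 ± 0.13 for siTAZ #1 (FDR 0.072) and 1.35 ± 0.13 with siTAZ #2 (FDR 0.0018), a 2.54-fold rise. The direct difference between the siRNAs was -0.92 ± 0.13 on the log2 scale (FDR 0.0051), which edgeR's exact test on those 4 libraries did not call (FDR 0.075).

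WASF3 (WAVE3) showed no change past the threshold. Its level was 51.2 and 50 CPM in siNTC, 59.3 and 54.3 CPM with siTAZ #1, and 64.4 and 51.2 CPM with siTAZ #2, where the lower library lay within the spread of the controls. The log2 fold changes were 0.17 and 0.19 (FDR 0.46 and 0.36), with 95% intervals from -0.18 to 0.51 and from -0.16 to 0.54. Neither interval reaches the falls measured for WASF2. WASL (N-WASP), the related activator that works outside the WAVE complex, stood at 47.8 and 43.7 CPM in siNTC, 49.6 and 84.5 CPM with siTAZ #1, and 66.9 and 59.2 CPM with siTAZ #2. All 4 siTAZ libraries of WASL lay above both siNTC libraries (18.6% of all genes did). The siTAZ #1 replicates of WASL disagreed with each other more than the groups did. Neither comparison passed (log2 0.55 and 0.46, FDR 0.18 and 0.22), but they did in 3 and 4 of the 16 alternatives. WAS, the leukocyte form, was too low to be tested.

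Among the PHACTR genes, PHACTR4 fell with both siRNAs and PHACTR2 with siTAZ #1. PHACTR4 lies on chromosome 1 of GRCh37 (chr1:28696093-28826876, plus strand), as does WASF2. It was measured at 78.0 and 86.8 CPM in siNTC, 35.8 and 31.7 CPM with siTAZ #1, and 39.2 and 40.4 CPM with siTAZ #2. The knockdown libraries lay together, well under both controls. PHACTR4 changed by -1.29 ± 0.12 (log2) with siTAZ #1 (FDR 0.0024) and by -1.05 ± 0.12 with siTAZ #2 (FDR 0.0029), to 41.0% and 48.3% of the control level, and it passed in all 16 alternatives. The siRNAs differed by -0.24, with a 95% interval from -0.54 to 0.06 (FDR 0.2).

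PHACTR2 stood at 83.2 and 82.9 CPM in siNTC. It was at 50.4 and 53.5 CPM with siTAZ #1 but at 91.7 and 87.5 CPM with siTAZ #2, so the siRNAs lay on opposite sides of the controls. Its log2 fold change came to -0.68 ± 0.09 with siTAZ #1 (FDR 0.0062) and 0.11 ± 0.09 with siTAZ #2 (FDR 0.41). The direct difference was -0.79 ± 0.09 (FDR 0.0028). The exact test called neither the fall with siTAZ #1 (FDR 0.2) nor the difference (0.088), and the fall was also lost without either siNTC library (0.062 each). Together with WASF1, PHACTR2 made 2 members that differed between the siRNAs, both lower with siTAZ #1, against 13.4% of all genes lower and 15.2% higher in that comparison.

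PHACTR1, known from endothelium and brain, was close to absent. It had 3 and 3 counts in siNTC, 5 and 8 with siTAZ #1, and 2 and 3 with siTAZ #2, and did not pass the filter on low counts. These counts were too few for any comparison, and PHACTR1 overlaps exons of TBC1D7 on the opposite strand, which cannot be told apart without a stranded count. PHACTR3 had 1 to 8 counts a library and was not tested either.

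**Figure D2:**
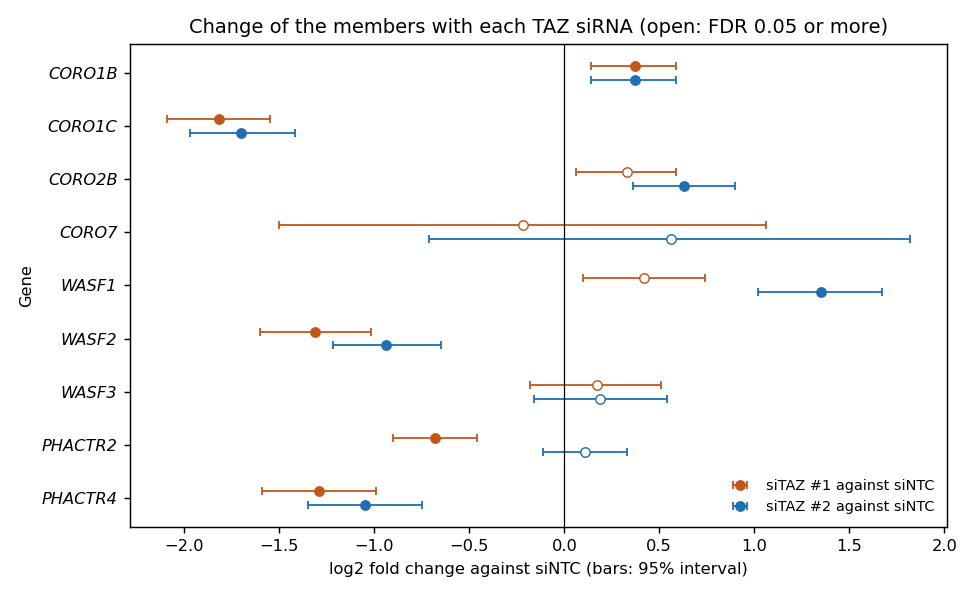
Log2 fold change of each tested member against siNTC (horizontal axis) with its 95% interval, for siTAZ #1 and siTAZ #2. Filled points passed an FDR of 0.05: CORO1C, WASF2 and PHACTR4 lie at -0.94 or lower with both siRNAs, and PHACTR2 is lower with siTAZ #1 (-0.68) and near 0 with siTAZ #2 (0.11).

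Ratios of counts within a library compare paralogues without any scaling between libraries. For each CORO1B count there were 8.22 CORO1C counts in siNTC (geometric mean of 2 libraries), 1.81 with siTAZ #1 and 1.96 with siTAZ #2. The log2 ratio was 3.02 and 3.06 in siNTC, 0.88 and 0.82 with siTAZ #1, and 1.06 and 0.88 with siTAZ #2, a change of -2.13 from control to all siTAZ libraries. The ratio of CORO1C to CORO2B changed by -2.23 and that to CORO7 by -2.11 on the same scale. The CORO7 value rested on siNTC ratios of 6.92 and 8.60 and became -2.95 when siNTC replicate 1 was dropped and -1.27 when replicate 2 was. From 4.57 CORO1C counts for each CORO2B count in control cells, the ratio came to 1.04 with siTAZ #1 and 0.912 with siTAZ #2.

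The ratios of WASF2 to both of its paralogues were lower as well. There were 13.7 WASF2 counts for each WASF1 count in siNTC, 4.11 with siTAZ #1 and 2.82 with siTAZ #2, a log2 change of -2.01. Relative to WASF3 the figures were 3.94, 1.41 and 1.81, a log2 change of -1.30. The ratio of PHACTR4 to PHACTR2 counts was 0.991 in siNTC, 0.649 with siTAZ #1 and 0.445 with siTAZ #2. The log2 change of that pair was -0.88, made of -1.16 with siTAZ #2 and -0.61 with siTAZ #1, where PHACTR2 fell too. For PHACTR1, the pooled counts gave 434 PHACTR4 counts for each PHACTR1 count in siNTC (exact 95% interval from 199 to 1180, counting error only), 122 with siTAZ #1 (71.2 to 230) and 301 with siTAZ #2 (129 to 930). Both siTAZ intervals overlap the siNTC interval, and PHACTR1 had too few counts for a comparison of the groups. In the 6 pairs without PHACTR1 the highest siTAZ ratio was below the lowest siNTC ratio. The PHACTR1 pair, at 2 to 8 counts, was left out of that count. The share of such pairs among all genes was not computed. CORO1C, WASF2 and PHACTR4 each lay below both siNTC libraries in all 4 siTAZ libraries by themselves, as did 17.5% of all tested genes. CORO1C, WASF2 and PHACTR4 belong to the study's list of genes lowered in these same libraries. Their lower ratios thus describe a size and are no independent evidence. A two-sided exact permutation test of 4 against 2 libraries gave p = 0.133 for each of the 6 pairs. Adjusted over all 7 pairs computed, it was also 0.133. This is the smallest p that this form of the test can give with these libraries, and the pairs of a gene share its counts.

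**Figure D3:**
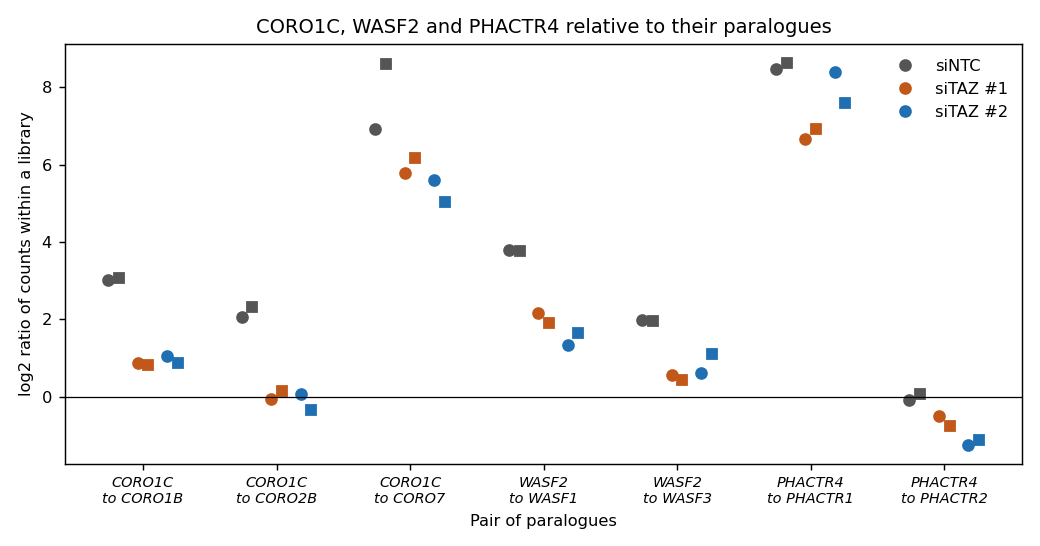
Log2 ratio of the counts of CORO1C, WASF2 or PHACTR4 to those of each paralogue (vertical axis) in the 6 libraries, with a circle for replicate 1 and a square for replicate 2. The siTAZ libraries lie below siNTC in the 6 pairs without PHACTR1, with the smallest change, -0.88, for PHACTR4 to PHACTR2. The PHACTR1 pair rests on 2 to 8 PHACTR1 counts a library.

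The order of the genes was compared as CPM per kb of a representative transcript, since longer transcripts collect more counts. In control cells CORO1C stood first at 143 ± 10.5 CPM per kb (SD, n = 2), followed by WASF2 at 35.2 ± 1.15 and CORO2B at 33.6 ± 1.81, which overlapped each other. CORO1B (15), PHACTR4 (13.6), WASF3 (10.4), PHACTR2 (8.62), WASF1 (5.03) and CORO7 (0.821 CPM per kb) came next, each apart from its neighbour in these libraries. With siTAZ #1, CORO2B (42.1 ± 3.96 CPM per kb) and CORO1C (40.5 ± 0.159) shared the first place within their spread, and PHACTR4 (5.58) and PHACTR2 (5.39) could not be ordered. With siTAZ #2, CORO2B was first at 51.9 ± 4.70 CPM per kb, above CORO1C at 44.1 ± 5.27 and without overlap, CORO1B (19.4) overlapped WASF2 (18.4), and WASF1 (12.8) overlapped WASF3 (11.9). CORO2B thus stood level with or above CORO1C per length in knockdown cells, and WASF1 reached the level of WASF3 with siTAZ #2. The transcripts in use were not measured, so each level depends on the length assumed.

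Of the 7 tested partners of WAVE in its complex, CYFIP2 and NCKAP1 rose with both siRNAs. In all, siTAZ #1 lowered 1 partner and raised 3, beside 9.78% and 10.8% of all tested genes, and siTAZ #2 raised 3, beside 14.1%. The same shares of all genes (14.4% for genes lowered by siTAZ #2) stand behind each list count that follows. For counts of genes changed by both siRNAs, the shares of all genes were 3.74% lower and 5.49% higher. CYFIP2, a CYFIP subunit that binds Rac, stood at 9.07 and 10.1 CPM in siNTC, 50.3 and 44.9 CPM with siTAZ #1, and 37.4 and 37.6 CPM with siTAZ #2. It rose 4.96-fold and 3.91-fold (log2 2.31 ± 0.13, FDR 0.00082, and 1.97 ± 0.13, FDR 0.00072). Its paralogue CYFIP1 did not pass, with 223 to 249 CPM over the 6 libraries and log2 fold changes of -0.07 and -0.05 (FDR 0.58 and 0.68).

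NCKAP1, the scaffold that pairs with CYFIP, rose from 141 and 144 CPM to 250 and 274 CPM with siTAZ #1 and to 248 and 212 CPM with siTAZ #2 (log2 0.88 and 0.69, FDR 0.0046 and 0.0064). Both calls were lost without either siNTC library, at FDR 0.058 to 0.066. Of the remaining subunits, ABI2 and BRK1 differed directly between the siRNAs (FDR 0.0011 and 0.0058). ABI2 rose with siTAZ #2 (0.71, FDR 0.0023) and stood at -0.24 on the log2 scale with siTAZ #1 (FDR 0.075). BRK1 rose with siTAZ #1 (0.50, FDR 0.018) and stood at -0.15 with siTAZ #2 (FDR 0.29). Its rise was lost without siNTC replicate 1 or 2 and in the exact test (FDR 0.38). ABI1 fell with siTAZ #1 at an FDR of 0.049, a call that 8 alternatives ended. ABI3 did not pass with either siRNA (FDR 0.68 and 0.7), and NCKAP1L, the blood cell form, was too low to be tested.

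Downstream of WAVE, 1 of the 11 genes for subunits of the Arp2/3 complex, paralogues included, fell with both siRNAs. ARPC5 was at 283 and 257 CPM in siNTC, 87.0 and 92.8 CPM with siTAZ #1, and 176 and 163 CPM with siTAZ #2 (log2 -1.59 and -0.67, FDR 0.00082 and 0.0045). The 3 groups did not overlap, and siTAZ #1 was lower than siTAZ #2 by a log2 difference of -0.91 (FDR 0.0019). Across these genes, siTAZ #1 lowered 2 and raised 3, and siTAZ #2 lowered 3. ARPC1A passed in opposite directions, higher with siTAZ #1 (0.51, FDR 0.015) and lower with siTAZ #2 (-0.64, FDR 0.0056).

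The catalytic subunits of protein phosphatase 1, which PHACTR proteins bind, moved in unlike ways with the siRNAs. PPP1CB was measured at 194 and 199 CPM in siNTC, 97.4 and 119 CPM with siTAZ #1, and 277 and 232 CPM with siTAZ #2. It fell with siTAZ #1 (log2 -0.86, FDR 0.0097) and stood at 0.38 with siTAZ #2 (FDR 0.083). The latter passed in 8 of the 16 alternatives, among them DESeq2 (FDR 0.019) and the exact test (0.0014). PPP1CA fell with siTAZ #2 (-0.80, FDR 0.0073) and stood at 0.14 with siTAZ #1 (FDR 0.47). PPP1CC rose with siTAZ #1 (0.40, FDR 0.031) and fell with siTAZ #2 (-0.42, FDR 0.02). Some of these calls were lost when a library was left out. This held for PPP1CB with siTAZ #1 without either siNTC library and for PPP1CA with siTAZ #2 without siNTC replicate 2. PPP1CC lost its calls with both siRNAs without either siNTC or either siTAZ #2 library. The exact test did not call PPP1CC with siTAZ #1 (FDR 0.56), and the replicate block called it with neither siRNA (FDR 0.078 and 0.054). All 3 differed directly between the siRNAs, by log2 values of -1.24, 0.93 and 0.82 (FDR 0.0024, 0.0043 and 0.0025).

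**Figure D4:**
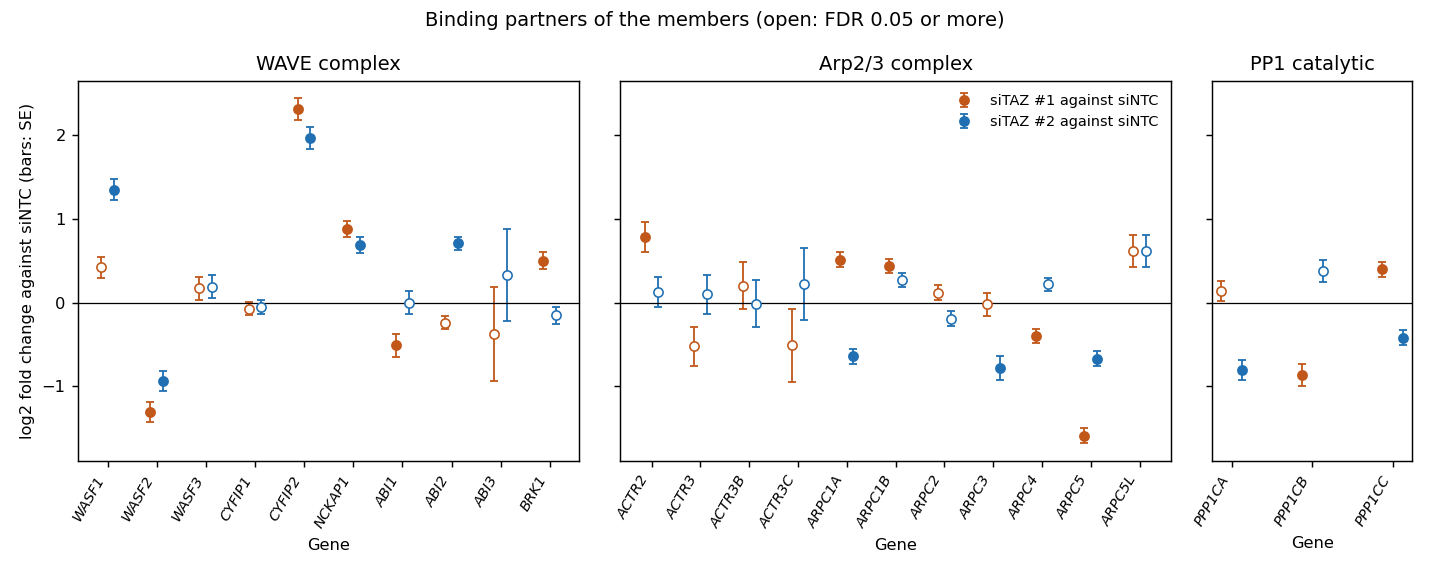
Log2 fold change against siNTC (vertical axis, bars are SE) of the WAVE genes and their complex partners, the Arp2/3 subunits and the catalytic subunits of protein phosphatase 1 (PP1), for siTAZ #1 and siTAZ #2, with filled points past an FDR of 0.05. CYFIP2 is highest at 2.31 and 1.97, and WASF2 and ARPC5 are lower with both siRNAs.

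Over all the actin lists, 82 genes other than the members were tested. The first siRNA, siTAZ #1, lowered 10 and raised 15 (9.78% and 10.8% of all tested genes), and siTAZ #2 lowered 21 and raised 9 (14.4% and 14.1% of all). Both siRNAs lowered 4 of them and raised 3, near the shares of all genes (3.74% and 5.49%), and these 7 genes in all ranged from 2 to 17 when a library was left out, lowest without either siNTC library and highest without siTAZ #1 replicate 1. ARPC5, WIPF2 and CFL1 were among the lowered genes, and the 3 raised genes were CYFIP2, NCKAP1 and LIMK2. Over the 82 genes, the median log2 fold change was 0.04 for siTAZ #1 and -0.05 with siTAZ #2, beside 0.02 and 0.01 over all tested genes.

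CFL1 (cofilin 1), which severs filaments, and LIMK2, a kinase that inactivates cofilin, moved in opposite directions. CFL1 stood at 982 and 1000 CPM in siNTC, 620 and 616 CPM with siTAZ #1, and 674 and 722 CPM with siTAZ #2 (log2 -0.68 and -0.51, FDR 0.0038 and 0.0064). LIMK2 stood at 35.2 and 40.5, 54.1 and 56.2, and 76.0 and 76.9 CPM (log2 0.54 and 1.01, FDR 0.024 and 0.0026). Neither gene had overlapping control and knockdown libraries. Of the 14 tested genes of the cofilin pathway, siTAZ #1 lowered 1 and raised 1, and siTAZ #2 lowered 3 and raised 3. CFL1 lost its calls without either siNTC library, and its call with siTAZ #1 also in the exact test (FDR 0.13). LIMK2 lost its call with siTAZ #1 in 7 of the alternatives. Among them were the exact test (FDR 0.48) and the fits without either siNTC library or either siTAZ #2 library.

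WIPF2, a partner of N-WASP, was the 1 gene lowered by both siRNAs among 14 other regulators of the Arp2/3 complex (log2 -0.56 and -0.52, FDR 0.024 each). Its calls did not hold without either siNTC library, nor that with siTAZ #2 without either of its own libraries. The call with siTAZ #1 was also lost in the exact test (FDR 0.36). With the replicate block both calls were lost (FDR 0.065 and 0.06).

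The actin genes and the MRTF and SRF genes, whose activity depends on free actin monomers, held 7 tested genes, of which 2 were higher with siTAZ #1 and 1 was lower with siTAZ #2. The 1 lower gene was ACTA2, the smooth muscle actin of myofibroblasts, which rose with siTAZ #1 (log2 0.59, FDR 0.013) and fell with siTAZ #2 (-0.80, FDR 0.0038). Of 13 tested genes for filament elongation and capping, 3 were higher with siTAZ #1 and 4 were lower with siTAZ #2. DIAPH2, among these 13, lies on X, where siTAZ #1 replicate 2 had almost no counts. It stood at 22.8 and 0.583 CPM with siTAZ #1 and did not pass with either siRNA (FDR 0.85 and 0.97). The formin DIAPH1 passed in both comparisons, at 0.30 with siTAZ #1 (FDR 0.038) and at -1.23 with siTAZ #2 (FDR 0.00064). ARPC1A, ACTA2 and DIAPH1 were named after their values were seen. With PPP1CC they are the 4 of the 82 list genes that passed in opposite directions. Of all 14053 tested genes, 214 passed in opposite directions.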

How the data were processed

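The authors deposited raw counts: Ion Proton reads were mapped with TMAP (hg19) and counted over genes by HTSeq 0.6.1. Strand and counting mode are not given in the sources used here. Of 23368 entries, 13 that bear a date in place of a symbol were left out (0.0458% to 0.0506% of the counts of a library). Positions, transcript lengths and GC content came from GENCODE on GRCh37, promoter windows from RefSeq.

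After filterByExpr and TMM normalization, 1 model of all 6 libraries was fitted in edgeR 4.0.16 (R 4.3.3) and its quasi-likelihood test applied. Benjamini-Hochberg adjustment covered 14053 genes, and the FDR threshold was 0.05. SEs and 95% intervals come from the F statistic. Ratios used 0.5 added counts and exact permutation tests (scipy 1.17.1). The tests were also run on simulated counts with the same dispersion for every gene, below the common dispersion of the fit. That simulation lacked the missing counts of siTAZ #1 replicate 2, so it does not show how the tests behave with them.

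The members and gene lists were chosen with earlier results of these data known. Genes named are the members, the other genes of their families, WWTR1, all WAVE complex partners and phosphatase subunits, and, per list, those past the threshold in one direction with both siRNAs (at most 4). The separate result of 1 list is not reported here. Alternatives were DESeq2 1.42.0, edgeR's exact test, RLE scaling, a robust fit, other filters, a fit of 4 libraries, each library left out, a replicate block, an FDR of 0.1, an offset for GC content (known for 95.4% of genes) and a fit without the affected genes of chromosomes 22, X and Y. With 2 libraries a group, an exact permutation test of 2 groups cannot pass 0.05. The correlations of same-numbered libraries' deviations were -0.00998, 0.0206 and -0.284, so the numbers were not taken to pair the libraries. Intervals on ratios cover counting error only.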

Additional observations from a re-analysis of the deposited data

Results flagged for a closer look

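The genes given here differed between siTAZ #1 and siTAZ #2 in the direct comparison, at an FDR under 0.05 by edgeR's quasi-likelihood test. Values are log2 differences, siTAZ #1 minus siTAZ #2. Among the members, WASF1 differed by -0.92 and PHACTR2 by -0.79, both lost in the exact test. Among the other coronins, CORO2A differed by 1.19, close to the threshold (FDR 0.047, lost in 10 alternatives), and CORO6 by -1.33 (lost without either siTAZ #2 library, at FDR 0.093). In the WAVE complex, ABI1 differed by -0.50 (lost in 8 alternatives), ABI2 by -0.96 and BRK1 by 0.66. ARPC5 differed by -0.91 and LIMK2 by -0.47 (FDR 0.028, lost in 6 alternatives). The phosphatase subunits PPP1CA, PPP1CB and PPP1CC differed by 0.93, -1.24 and 0.82. The differences of BRK1, PPP1CC and WWTR1 were lost in the exact test. WWTR1, the targeted gene, was itself lower with siTAZ #1 than with siTAZ #2, by -0.70. The part of this unequal knockdown, or of siRNA sequence, in the other differences was not tested.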

How the results depend on the processing

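The falls of CORO1C, WASF2 and PHACTR4 with both siRNAs passed in all 16 alternatives run. The siTAZ #1 count of changed members, 5, was 3 by the exact test and 3 to 5 with a library left out, lowest without either siNTC library. The 2 members that differed between the siRNAs became 0 by the exact test (2 at an unadjusted p under 0.05), 4 without the affected genes of chromosomes 22, X and Y, 4 with the GC offset, 4 at an FDR of 0.1 and 2 to 4 with a library left out, highest without siTAZ #1 replicate 1. DESeq2 and the quasi-likelihood test were within 1.5 times of each other there. The 7 list genes changed by both siRNAs became 11 with DESeq2, 4 with the exact test, 11 with the GC offset and 2 to 17 with a library left out, lowest without either siNTC library and highest without siTAZ #1 replicate 1. The causes were not tested.

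The siRNA difference of CORO1B, 0.00081, turned to -0.01 with a mean count of at least 50, to -0.00018 with the replicate block, to -0.02 without those affected genes, spanned -0.03 to 0.04 with a library left out, and was 0.30 with the GC offset (FDR 0.049), past the threshold. With siTAZ #2 the GC offset gave CORO1B -0.0018. Leaving out a library also turned the siRNA differences of CORO1C (-0.23 to 0.01) and WASF3 (-0.17 to 0.15) and the changes of CORO7 with siTAZ #1 (-0.80 to 0.74) and siTAZ #2 (-0.04 to 1.51). None of these had passed the threshold in the quasi-likelihood test except CORO1B with siTAZ #2.

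With the replicate block, 4 members changed with siTAZ #1, 5 with siTAZ #2, 3 with both and 2 differed between the siRNAs, and 5 list genes changed with both. The numbers of siTAZ #1 and siTAZ #2 could be crossed, and a replicate block with the siTAZ #2 numbers exchanged, chosen after seeing the data, gave 6, 6, 5, 4 and 7, and with the siTAZ #1 numbers exchanged 4, 5, 3, 2 and 8. The 2 libraries a group and the raised dispersion limit small changes. PHACTR1 had too few counts to test, and the siNTC libraries of CORO7 disagreed (67 and 23 counts).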
